A study of Mus musculus with 18 samples.

Results

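The genes described here are 33 genes of blood vessels and lymphatics, covering endothelial cells, lymphatic endothelial cells and the pericytes that wrap capillaries. They were chosen by name, with earlier results of these data known. Each was read from the brightest probe set that carries its symbol. All 33 were on the platform, out of 19938 named genes, each had 1 probe set, and all 33 were among the 17316 genes tested. The values come from 18 Affymetrix arrays of mouse intestine, 3 per group, and are log2 expression values. Control epithelial cells and Stat3-deleted epithelial cells were labelled as intestinal epithelial cells, with genotype given as Stat3fl/fl or Stat3-/-. Tumours were taken from male and from female mice, again Stat3fl/fl or Stat3-/-, which gives 4 tumour groups. In the deleted mice a Villin promoter drove the Cre recombinase that removes floxed Stat3, so the deletion was aimed at epithelium, and vessel cells were not its target. The controls carried the same floxed alleles, and the design text places the tumour mice on the APCmin/+ background, in which tumours form mostly in the small intestine. The sample descriptions name chemically induced colorectal tumours instead, and the labels give no age for any mouse and no sex or Apc genotype for the epithelial cells. The labels do not state that the 3 arrays of a group are 3 animals. A p-value here therefore reflects array-to-array spread, which may be technical in part.

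Blood vessels are lined by endothelial cells, which hold together through cadherin and claudin junctions and grow in response to VEGF, angiopoietin, apelin and Notch signals. New sprouts are led by tip cells that express Dll4 and Angpt2, and the young vessel secretes Pdgfb, which draws in pericytes carrying its receptor Pdgfrb. Lymphatic capillaries are a separate endothelial network, marked by Lyve1, Flt4 and the transcription factor Prox1, and in the intestine they include the lacteals that carry absorbed fat. Normal intestinal epithelium holds no vessels of its own, and tumours depend on a vascular stroma that grows with them.

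Stat3 itself, the deleted gene, was lower in the deleted mice, by log2 differences of -1.96 in epithelial cells, -2.09 in tumours of males and -1.87 in those of females (limma, adjusted p = 1.23e-05, 4.7e-06 and 1.24e-05), and no deleted array reached a control array of the same tissue and sex. Array medians over all probe sets lay between 5.88 and 6.07. Control tumour replicates 9 (male) and 15 (female) stood apart from the other 10 tumours in genes of gut position. Hoxd13, a gene of the hindgut, was at 8.25 and 9.10 there and at no more than 5.59 in the others, and Gata4, a factor of the proximal small intestine, was at 6.92 and 6.84 there and at no less than 8.86 in the others. Several results that involve these arrays, but not all, are given with and without them. Between 30 and 32 of the 33 vascular genes exceeded the 25th percentile of all probe sets on each epithelial array, and 32 or 33 did on each tumour array. Mmrn1 was under that level on all 6 epithelial arrays and Emcn on 5 of 6, so both were tested only because tumours raised them and a difference between tissues was built into their selection.

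Promoter sequence was available for 18 of the 33 genes, as 22 promoters of 300 bases (RefSeq, GRCm38.p6). Rgs5, Emcn, Eng and Cd34 are 4 of the matched genes, higher in tumours than in epithelial cells of control mice by 3.96, 2.60, 2.51 and 2.06. These 4 were picked for the size of this difference, from part of the 18 matched genes and not from all of them. They therefore do not represent the matched genes, and their differences are no separate support. Sequences of these 4 are shown. They give the 250 bases upstream of the start site, 5′ to 3′ on the plus strand, at chr1:169655251-169655500, chr3:137340828-137341077, chr2:32646345-32646594 and chr1:194938571-194938820. Capitals mark AGGAAG or its reverse complement CTTCCT, the core letters bound by ETS factors, the family to which the endothelial regulator Erg belongs.
Rgs5: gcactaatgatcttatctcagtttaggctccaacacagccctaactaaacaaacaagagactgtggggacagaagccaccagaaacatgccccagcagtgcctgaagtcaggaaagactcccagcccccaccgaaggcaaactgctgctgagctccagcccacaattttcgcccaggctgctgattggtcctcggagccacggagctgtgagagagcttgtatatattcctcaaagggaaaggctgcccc
Emcn: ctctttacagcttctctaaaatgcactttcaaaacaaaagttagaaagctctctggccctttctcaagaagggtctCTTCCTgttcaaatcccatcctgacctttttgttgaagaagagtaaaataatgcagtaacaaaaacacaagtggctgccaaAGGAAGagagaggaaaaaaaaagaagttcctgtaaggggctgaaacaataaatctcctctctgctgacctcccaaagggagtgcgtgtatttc
Eng: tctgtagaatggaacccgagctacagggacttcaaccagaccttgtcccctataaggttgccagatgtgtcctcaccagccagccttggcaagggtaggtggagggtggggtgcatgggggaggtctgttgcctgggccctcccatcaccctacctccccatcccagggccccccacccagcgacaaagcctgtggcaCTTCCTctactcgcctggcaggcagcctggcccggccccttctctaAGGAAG
Cd34: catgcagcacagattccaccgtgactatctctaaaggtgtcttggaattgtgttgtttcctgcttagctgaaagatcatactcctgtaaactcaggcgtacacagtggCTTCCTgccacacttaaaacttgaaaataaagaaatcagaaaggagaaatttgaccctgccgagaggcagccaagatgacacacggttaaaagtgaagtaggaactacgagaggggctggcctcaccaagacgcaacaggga
Emcn and Eng each held 2 such cores, Cd34 held 1 and Rgs5 held none. Over the full 300 bases, 10 of the 18 matched genes held the core, and the endothelial gene Tek was among those without it. Searched on both strands, AGGAAG was in 11 of the 22 vascular gene promoters (50%) and in 35.4% of all 32851 promoters of the same length. The letters AGATAA, bound by GATA factors, were in 13.6% against 11.2%, ACAAAG, bound by SOX factors, in 18.2% against 18.7%, and TATAAA in 9.09% against 13.6%. CCGGAAG, an ETS core with another flank that shares the letters GGAAG with AGGAAG, was in 0 of the 22 against 8.86%. The STAT pattern TTCNNNGAA, whose matches can overlap those of the ETS core, was in 0 of the 22 against 8.3%. These are matches of letters in a window and were not tested.

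Vascular genes were higher in tumours than in epithelial cells. In control mice 26 of the 33 genes were higher and 0 were lower at an adjusted p under 0.05, where 30.4% of all tested genes were higher and 35.3% were lower. In Stat3-deleted mice 23 were higher and 1, Sox18, was lower, against 30.3% and 36.2% of all tested genes. Without Emcn and Mmrn1, 24 of the other 31 genes were higher and 0 lower in control mice, and 21 were higher and 1 lower in deleted mice. The median difference over the 33 genes was 1.15 in control mice and 1.06 in deleted mice, and over all tested genes it was -0.08 and -0.07. The 23 genes higher in deleted mice were all among the 26 of control mice, of which they make 88.5%. The tissue comparisons in control and deleted mice share no arrays, but they come from 1 fit with a shared spread and are not independent tests. In whole tissue, more cells of a type and more RNA per cell cannot be told apart. Tissue and preparation cannot be told apart either, because epithelial cells and tumours were different preparations.

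**Figure D1:**
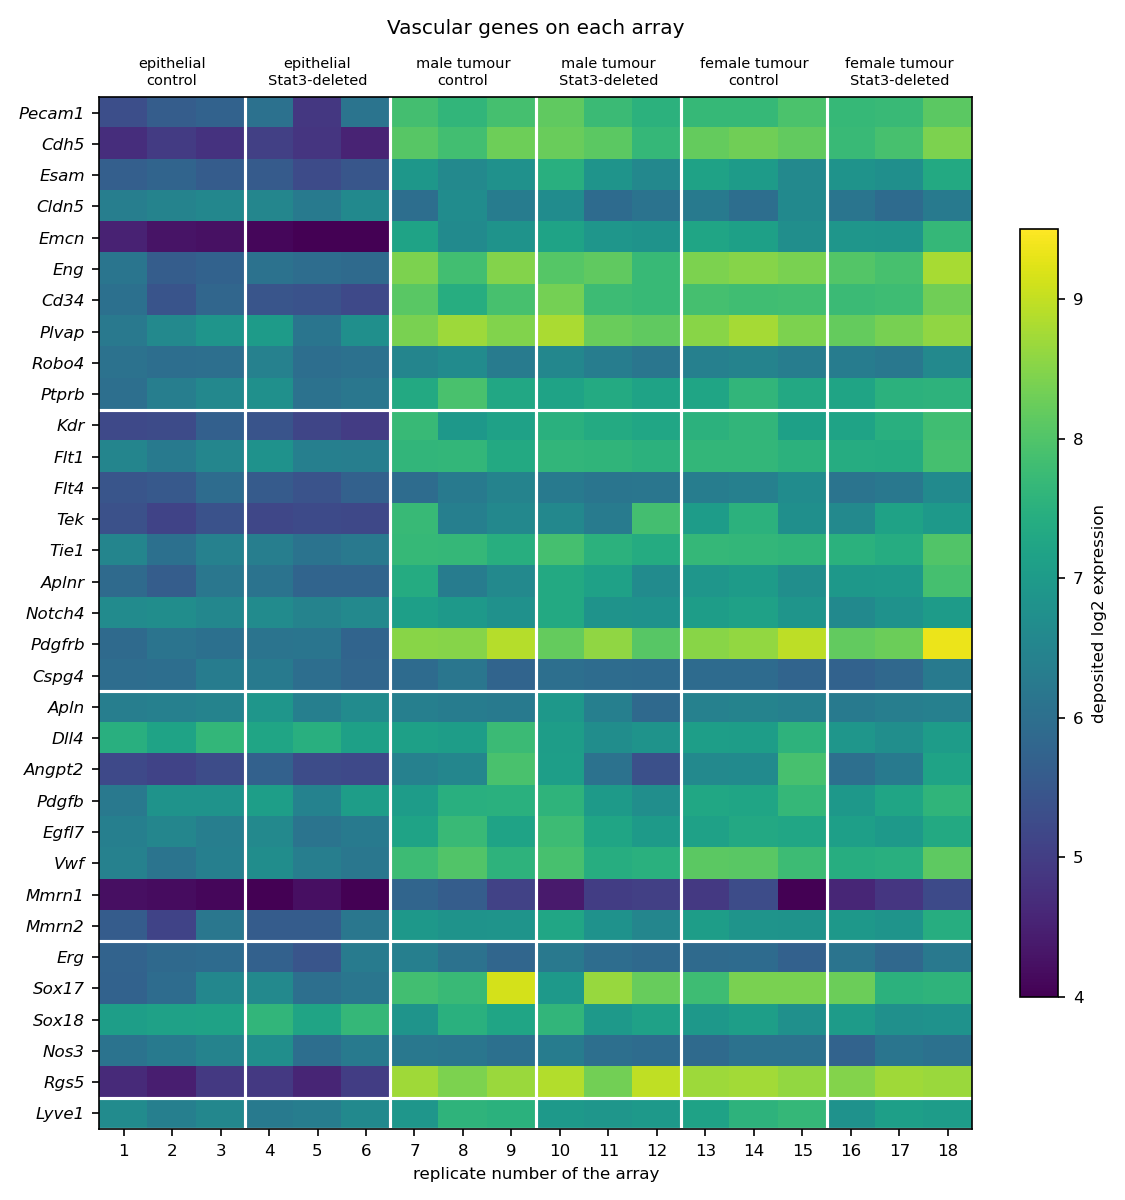
Deposited log2 expression of the 33 vascular genes (rows, ordered from junction and surface genes through receptors, ligands and regulators to Lyve1) on the 18 arrays (columns, by group), with brighter colours for higher values. Colours may be compared along a row only. The mean over the 33 genes lay between 5.78 and 6.09 on the 6 epithelial arrays and between 6.95 and 7.40 on the 12 tumour arrays.

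Among the 10 junction and surface genes, 9 were higher in control tumours and 8 in deleted tumours. Cdh5, the cadherin of endothelial junctions, ranged from 4.55 to 5.03 with a median of 4.82 on the 6 epithelial arrays and from 7.66 to 8.42 with a median of 8.14 on the 12 tumour arrays. No epithelial array came within 2 log2 units of a tumour array. The difference was 3.32 ± 0.17 (SE) in control mice (adjusted p = 1.45e-09, limma), and 3.20 ± 0.17 in deleted mice (adjusted p = 3.73e-09). Pecam1, an adhesion molecule of endothelial junctions that platelets and leukocytes also carry, ranged from 4.90 to 6.11 in epithelial cells and from 7.53 to 8.16 in tumours, and differed by 2.22 in control and 2.15 in deleted mice.

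Emcn, a sialomucin of capillary and venous endothelium, was higher by 2.60 and 3.07, a difference that its passing of the filter had already required. Eng, a co-receptor for TGF-beta and BMP ligands on dividing endothelium, was higher by 2.51 and 2.13. Cd34, a surface mucin of endothelium and of blood progenitors, was higher by 2.06 and 2.60, and Plvap, which forms the diaphragms of fenestrated capillaries, by 1.99 and 1.76. Smaller differences were found for the junction molecule Esam (1.16 and 1.53) and for Ptprb, the phosphatase that restrains the angiopoietin receptor (1.15 and 1.0). Leaving Emcn aside, the limma adjusted p of the other 5 genes lay at or under 0.000281 in both genotypes, and no epithelial array overlapped a tumour array of the same genotype.

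Robo4, a receptor that stabilises vessels, was higher in control mice by 0.42 ± 0.13 (adjusted p = 0.0119) and had a difference of 0.21 ± 0.13 in deleted mice (adjusted p = 0.177). Cldn5, the tight junction claudin of endothelium, was not called in either. Its differences were -0.16 and -0.29 (adjusted p = 0.46 and 0.176), and its tumour values, from 5.92 to 6.68, spanned its epithelial values, from 6.25 to 6.60.

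Of the 9 receptors, 8 were higher in each genotype. Kdr, the main signalling receptor for VEGF, ranged from 4.99 to 5.70 in epithelial cells and from 6.93 to 7.81 in tumours, and was higher by 1.95 ± 0.19 in control and 2.24 ± 0.19 in deleted mice. Flt1, which binds VEGF and acts in large part as a decoy, was higher by 1.14 and 1.06. Flt4, the receptor for the lymphatic growth factors Vegfc and Vegfd, was higher by 0.69 and 0.68, and in control mice its lowest tumour value, 5.95 in replicate 7, lay marginally under its highest epithelial value, also 5.95 when rounded. Tek, the angiopoietin receptor, was higher by 1.70 and 1.71, and its partner Tie1 by 1.30 and 1.39.

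Tek varied widely among tumours, from 6.29 in replicate 11 to 7.87 in replicate 12, both of them deleted male tumours. Aplnr, the apelin receptor, was higher by 0.92 and 1.28. Notch4, the Notch receptor of endothelium, was higher by 0.36 ± 0.14 and 0.33 ± 0.14 (limma adjusted p = 0.0307 and 0.0441), and this call was lost in 1 or both genotypes when any of replicates 1, 2, 3, 4, 5, 6, 7, 10, 13, 14, 17 or 18 was left out (differences from 0.24 to 0.40). Under quantile normalisation it was lost in both (0.13 and 0.20, adjusted p = 0.42 and 0.22), and in deleted mice it was also lost when only the compared groups were fitted (adjusted p = 0.0804).

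Of the pericyte genes, Pdgfrb and Rgs5 were called and Cspg4 was not. Pdgfrb, the receptor through which pericytes and fibroblasts respond to Pdgfb, ranged from 5.77 to 6.14 in epithelial cells and from 8.07 to 9.34 in tumours, and was higher by 2.65 ± 0.22 and 2.43 ± 0.22. Rgs5, a regulator of G protein signalling typical of pericytes, ranged from 4.47 to 5.0 with a median of 4.79 in epithelial cells and from 8.33 to 8.97 with a median of 8.68 in tumours. Its difference was 3.96 ± 0.15 in control mice (adjusted p = 1.08e-10, limma), and in deleted mice the difference was 3.84 ± 0.15 (adjusted p = 1.72e-10). Cspg4, the proteoglycan used as a pericyte stain, was not called. Its differences were -0.18 and -0.08 (adjusted p = 0.262 and 0.643), with 95% intervals that stayed within 0.5 log2 units of 0.

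Of the 8 ligands and secreted proteins, 6 were higher in control mice and 4 in deleted mice. Vwf, the clotting factor carrier stored in endothelial granules, was higher by 1.58 and 1.23. Egfl7, an endothelial matrix factor, was higher by 0.89 and 0.91, and Mmrn2, an endothelial matrix protein, by 1.26 and 1.17. Mmrn1, a protein of platelets and lymphatic endothelium, was higher by 0.91 and 0.82. It lay under the array median on all 12 tumour arrays, 1 control tumour (replicate 15, at 3.75) was under every epithelial array, and its call in deleted mice was lost without replicate 4 (0.76, adjusted p = 0.0515).

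Angpt2, the angiopoietin that loosens vessels ahead of sprouting, was higher by 1.79 ± 0.40 in control mice (adjusted p = 0.00124) and differed by 0.92 ± 0.40 in deleted mice (adjusted p = 0.0519). Without replicates 9 and 15 these became 1.33 (limma adjusted p = 0.00312) and 0.92 (adjusted p = 0.0132). Both replicates are control tumours, so in deleted mice only the spread shared by all groups changed. In deleted mice it was also called under quantile normalisation (1.04, adjusted p = 0.0224), with array weights (0.71, adjusted p = 0.0186) and when only the compared groups were fitted (0.92, adjusted p = 0.0367). Pdgfb, the pericyte attractant, was higher by 0.74 ± 0.22 in control mice (adjusted p = 0.00808) and differed by 0.32 ± 0.22 in deleted mice (adjusted p = 0.209). The control call was lost without replicate 1 (0.54, adjusted p = 0.0645) and under quantile normalisation (0.50, adjusted p = 0.0749). It held without replicates 9 and 15 (0.63, limma adjusted p = 0.0326).

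Apln, the apelin ligand of tip cells, had differences of -0.03 and -0.27 and was not called. Dll4, the Notch ligand of tip cells, was not called either. It ranged from 7.12 to 7.64 (median 7.35) in epithelial cells and from 6.69 to 7.76 (median 7.06) in tumours. Which cells carried it was not tested. The differences were -0.15 ± 0.17 in control and -0.40 ± 0.17 in deleted mice (limma adjusted p = 0.452 and 0.0527). Without replicates 9 and 15 the deleted difference was called (-0.40, adjusted p = 0.0183). These are control tumours, so the deleted difference itself was unchanged and only the spread shared by all groups moved. In deleted mice Dll4 was also called under quantile normalisation (-0.64), with array weights (-0.33) and when only the compared groups were fitted (-0.40). Quantile normalisation called the control difference too (-0.41).

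The 5 regulators and enzymes were mixed. Besides Rgs5, only Sox17 was higher in tumours, by 2.14 ± 0.36 and 1.61 ± 0.36 (limma adjusted p = 0.000126 and 0.00116). Sox17, a factor of arterial endothelium, ranged from 6.95 to 9.16 in tumours, and its highest value was in replicate 9. Which cells carried Sox17 was not tested. Sox18, a factor of vascular and lymphatic development, had a difference of -0.07 in control mice and was lower by 0.44 ± 0.17 in deleted mice (adjusted p = 0.0269). That call was lost without replicate 4, 6, 11 or 17, with differences from -0.42 to -0.36. Erg, the ETS factor of endothelium, ranged from 5.44 to 6.30 in epithelial cells and from 5.71 to 6.37 in tumours, with differences of 0.11 and 0.23. Nos3, the endothelial nitric oxide synthase, differed by -0.20 and -0.28. Neither Erg nor Nos3 was called.

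Lyve1, the hyaluronan receptor of lymphatic endothelium, which some macrophages share, ranged from 6.27 to 6.65 in epithelial cells and from 6.80 to 7.66 in tumours. The ranges did not touch, and Lyve1 was higher by 0.87 ± 0.16 in control mice (adjusted p = 0.000235) and 0.56 ± 0.16 in deleted mice (adjusted p = 0.00531, limma).

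**Figure D2:**
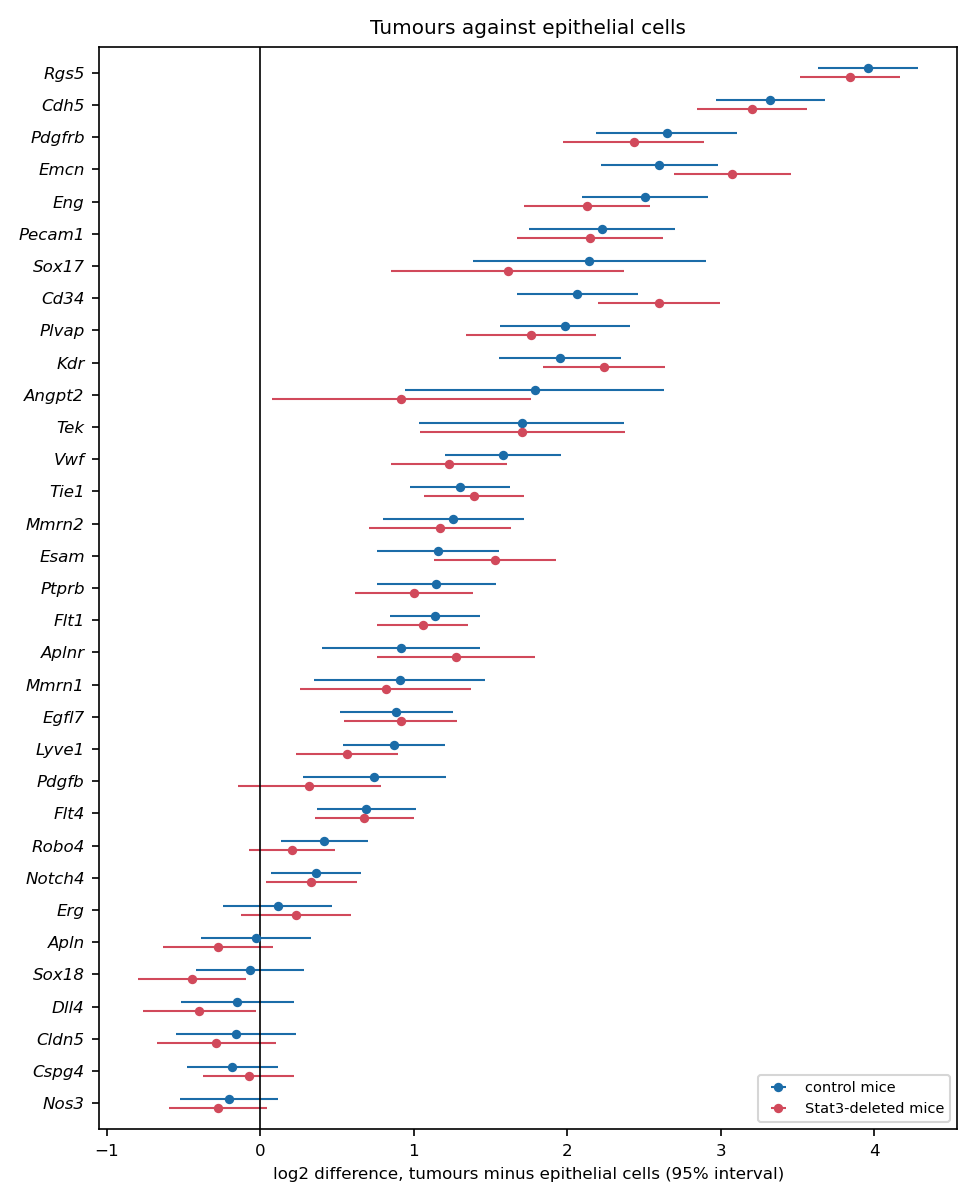
Log2 difference of each vascular gene, tumours minus epithelial cells, in control mice (blue) and in Stat3-deleted mice (red), as points with 95% intervals, ordered by the control difference. Rgs5 and Cdh5 lie above 3 in both genotypes, and the 7 lowest genes, from Erg to Nos3, have control intervals that include 0.

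In control mice the arrays of the compared tissues did not overlap, with tumours above, for 24 of the 33 genes, where 24.8% of all tested genes had that order. In deleted mice this held for 22 genes, against 27.1%, and 1 gene, Dll4, had the opposite order, against 28.8%. Emcn is in both counts with tumours above, and Mmrn1 is in the deleted one. For them a difference between tissues was built into the selection, so their order is no support. The difference between genotypes in the size of the tissue difference passed the test for 0 of the 33 genes, and for 0.0116% of all tested genes. The smallest p belonged to Cd34 (0.53 larger in deleted mice, 95% interval -0.03 to 1.09, limma unadjusted p = 0.0599, adjusted p = 0.536), and 0 of the 33 had an unadjusted p under 0.05, where 9.38% of all tested genes did. Among the intervals of the 33 genes, 27 stayed within 1 log2 unit of 0.

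For the wider vascular lists, the counts stand against 30.4% of all tested genes higher and 35.3% lower in control mice, and 30.3% and 36.2% in deleted mice, and several lists were near or under these shares. Of 21 tested further endothelial genes, 15 were higher in control mice and 0 were lower. Those with the smallest p were Ecscr, an endothelial surface protein that modulates migration (3.27), Thbd, the endothelial thrombin receptor (2.42), and the adhesion receptor Adgrl4 (2.29). In deleted mice 11 were higher and 1, She, was lower. Of 11 tested pericyte and mural genes, 6 were higher and 3 lower in control mice, with Mcam (1.92), the potassium channel subunit Abcc9 (1.56) and Gucy1b1 (1.14) highest in rank, and with Foxs1 (-0.63), Anpep (-2.39) and Higd1b (-0.43) lower. Anpep is also a brush border enzyme of enterocytes. In deleted mice 6 were higher and 4 lower.

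Of 7 tested lymphatic genes, 5 were higher and 1 lower in control mice, and 3 were higher and 1 lower in deleted mice. Prox1, the master factor of lymphatic identity, had the largest difference (5.07 and 4.23), and it is also known from intestinal adenoma cells themselves. Itga9 was higher by 1.60 and 1.83, Pdpn, which fibroblasts also express, by 1.82 and 1.08, and Stab2 was lower (-0.53 and -0.57). Of 12 tested VEGF, angiopoietin and PDGF ligands and co-receptors, 3 were higher and 1 lower in control mice, and 3 were higher and 2 lower in deleted mice. The co-receptor Nrp1 was higher (1.75 and 2.14), and Vegfa, the principal ligand of Kdr, was lower (-0.77 and -0.82, limma adjusted p = 0.00227 and 0.00133). Vegfc and Pgf were not called in either genotype.

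Of 9 tip cell genes other than the members, 8 were higher and 1 lower in control mice, and 7 were higher and 1 lower in deleted mice. The basement membrane genes Lama4 (2.51 and 2.45) and Col4a1 (2.38 and 1.95) and Igfbp3 (3.21 and 2.50) were higher, and Unc5b, a netrin receptor of tip cells, was lower (-1.50 and -1.58). Of 7 further Notch genes, 5 and 4 were higher and 1 was lower in each genotype, with Notch2 (1.80 and 1.39) and Jag1 (1.17 and 1.11) higher and Dll1 lower (-1.27 and -0.90). Of 8 tested angiogenesis inhibitors, 5 were higher and 1 lower in each genotype, and Thbs1 was higher by 4.64 and 4.73. Of 17 further endothelial transcription factors, 7 and 9 were higher and 2 lower in each, with Mecom (2.0 and 1.64) and Ets2 (1.20 and 0.92) higher and Klf4 (-1.69 and -1.59), which differentiated enterocytes and goblet cells also express, and Tal1 (-0.58 and -0.90) lower. Of 5 tested adhesion genes of activated endothelium, 2 and 3 were higher, including Vcam1 (1.60 and 1.79) and Icam1 (1.30 and 0.74). Of 11 hypoxia genes, 6 were higher and 0 lower in control mice, and 2 were higher and 1 lower in deleted mice, with the glucose transporter Slc2a1 higher in both (2.51 and 2.12). Under quantile normalisation and median centring 0 of the called genes of these and the marker lists turned direction, and of those named here Higd1b in both genotypes, and Icam1 and She in deleted mice, lost their call.

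Fibroblast and smooth muscle markers moved with the vascular genes. All 7 fibroblast markers were higher in tumours in both genotypes (Col6a1 lost its call in deleted mice under quantile normalisation), among them Col1a1 (4.07 and 3.97), Dcn (4.34 and 4.96) and Pdgfra (3.83 and 3.45), and the mean of the 7 lay between 6.29 and 6.91 on epithelial arrays and between 9.24 and 10.86 on tumour arrays. Of 6 smooth muscle markers, 5 were higher in each genotype and Lmod1 was lower in deleted mice (-0.42), with list means from 5.73 to 6.35 and from 7.41 to 9.12. Of 7 tested leukocyte markers, 4 and 3 were higher and 1 and 2 lower, with means from 6.48 to 7.49 and from 6.73 to 8.13. Of 5 platelet markers, 2 and 0 were higher and 3 lower in each, with means from 5.90 to 6.43 and from 5.61 to 6.5. Of 3 tested glial markers, 0 were higher and 2 lower in each, with means from 5.53 to 5.89 and from 5.03 to 5.64. The 1 erythroid gene tested was not called, at 5.44 to 6.37 and 5.22 to 7.03. The means of 8 epithelial markers overlapped, from 11.62 to 11.91 on epithelial arrays and from 11.32 to 12.05 on tumour arrays, but single markers moved both ways. Krt18 (1.82 and 1.68) and Krt19 (0.79 and 0.70) were higher in tumours of control and deleted mice. Vil1 (-1.34 and -0.75) and Cldn7 (-0.57 and -0.77) were lower in both, and Krt20 (-1.61) was lower in control mice. Krt19 lost its call in both genotypes under quantile normalisation. No marker was listed at 0, since the deposited values start at 1.33, and the part of these cells in the vascular result was not tested.

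Deletion of Stat3 in the epithelium was followed by no called change in the 33 vascular genes. In tumours of both sexes combined, 0 of the 33 passed, where 0.71% of all tested genes did. For males alone 0 passed against 0.231%, for females alone 0 against 0.104%, and for epithelial cells 0 against 0.0231%. At an unadjusted p under 0.05, limma gave 2 genes in both sexes combined, 3 in males, 1 in females and 0 in epithelial cells, where 12%, 7.52%, 5.03% and 6.8% of all tested genes passed that level. The median difference over the 33 genes was -0.08 in both sexes combined, and over all genes -0.04. The male and female comparisons and their combination share arrays, so their values are given side by side and are not separate support.

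The intervals give the range of differences that the spread between arrays allows. They are not adjusted, and that spread may be technical in part, so they need not bound a change between mice. In both sexes combined, the 95% intervals of 32 of the 33 genes stayed within 1 log2 unit of 0, and the exception was Angpt2. The interval of Cdh5 ran from -0.42 to 0.16, that of Pecam1 from -0.34 to 0.44, that of Kdr from -0.24 to 0.41 and that of Rgs5 from -0.23 to 0.30. Tie1 (-0.26 to 0.27) and Flt1 (-0.24 to 0.24) had some of the tightest intervals. Within 1 log2 unit lay 30 intervals for males, 31 for females and 31 for epithelial cells.

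**Figure D3:**
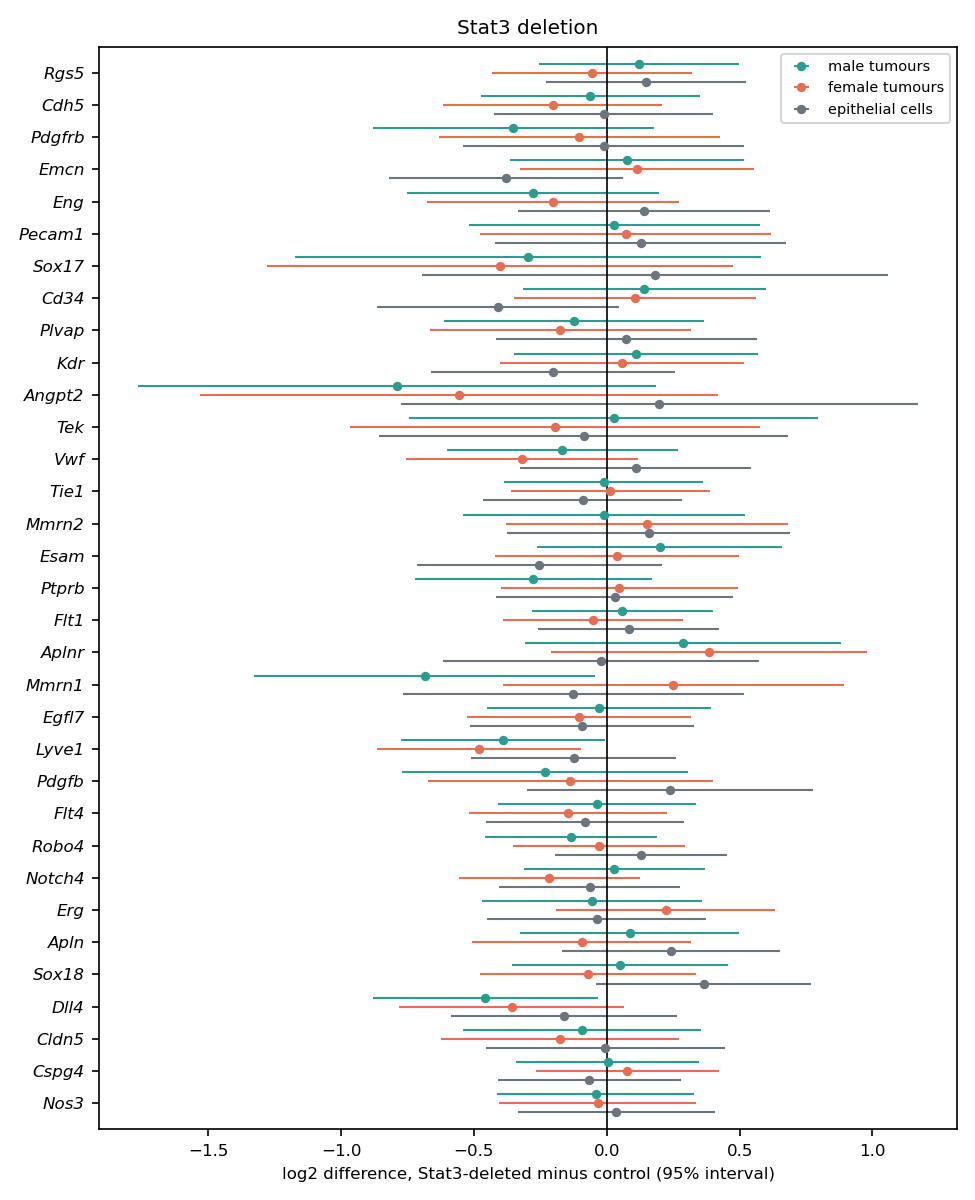
Log2 difference of each vascular gene, Stat3-deleted minus control, in male tumours (green), female tumours (orange) and epithelial cells (grey), as points with 95% intervals, in the order of the tissue plot. Points lie between -0.79 (Angpt2, male tumours) and 0.38 (Aplnr, female tumours).

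Lyve1 had the smallest p among the 33 genes in tumours of both sexes combined and in female tumours, while in male tumours Dll4 (unadjusted p = 0.0357) and Mmrn1 (0.0376) had the smallest by limma. In control male tumours it was at 6.90, 7.58 and 7.52 (replicates 7, 8 and 9) and in deleted male tumours at 6.96, 6.88 and 6.98. In control female tumours it was at 7.18, 7.55 and 7.66 and in deleted female tumours at 6.80, 7.11 and 7.04. The female groups did not overlap, an order that 10.4% of all tested genes had, while in males replicate 7 lay among the deleted tumours. Lyve1 differed by -0.39 in male and -0.48 in female tumours, and by -0.44 ± 0.13 in both combined (limma unadjusted p = 0.0036, adjusted p = 0.144). Leaving out each replicate in turn brought it past the threshold only without replicate 7 (-0.54, adjusted p = 0.0307), and without replicates 9 and 15 the difference was -0.34 (adjusted p = 0.412).

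Dll4 was at 7.13, 7.07 and 7.76 in control and at 7.07, 6.69 and 6.83 in deleted male tumours. In female tumours it was at 7.09, 7.06 and 7.57 in control and at 6.88, 6.72 and 7.04 in deleted mice. Control tumours lay above deleted tumours within each sex, by margins under 0.03 log2 units at the nearest arrays, an order that 8.03% of all tested genes had in males and 10.4% in females. The combined difference was -0.41 ± 0.14 (limma unadjusted p = 0.0106, adjusted p = 0.226). Replicates 9 and 15 were the highest of all tumours, and without them the difference was -0.22 ± 0.13 (adjusted p = 0.639). With array weights it was -0.41 (adjusted p = 0.0371).

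Angpt2 was highest in the same pair of tumours. It was at 6.42, 6.53 and 7.92 in control male tumours (replicates 7, 8 and 9) and at 7.07, 6.08 and 5.34 in deleted male tumours. In female tumours it was at 6.58, 6.62 and 7.89 in control mice (replicates 13, 14 and 15) and at 6.01, 6.24 and 7.18 in deleted mice. The genotypes overlapped in each sex. The combined difference was -0.67 ± 0.33 (limma adjusted p = 0.429), with an interval from -1.36 to 0.02, and without replicates 9 and 15 it was -0.22 ± 0.27 (adjusted p = 0.889). With array weights it was -0.91 (adjusted p = 0.0435). Erg was lowest in the same pair, at 5.81 and 5.71, where the other 10 tumours lay between 5.86 and 6.37.

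**Figure D4:**
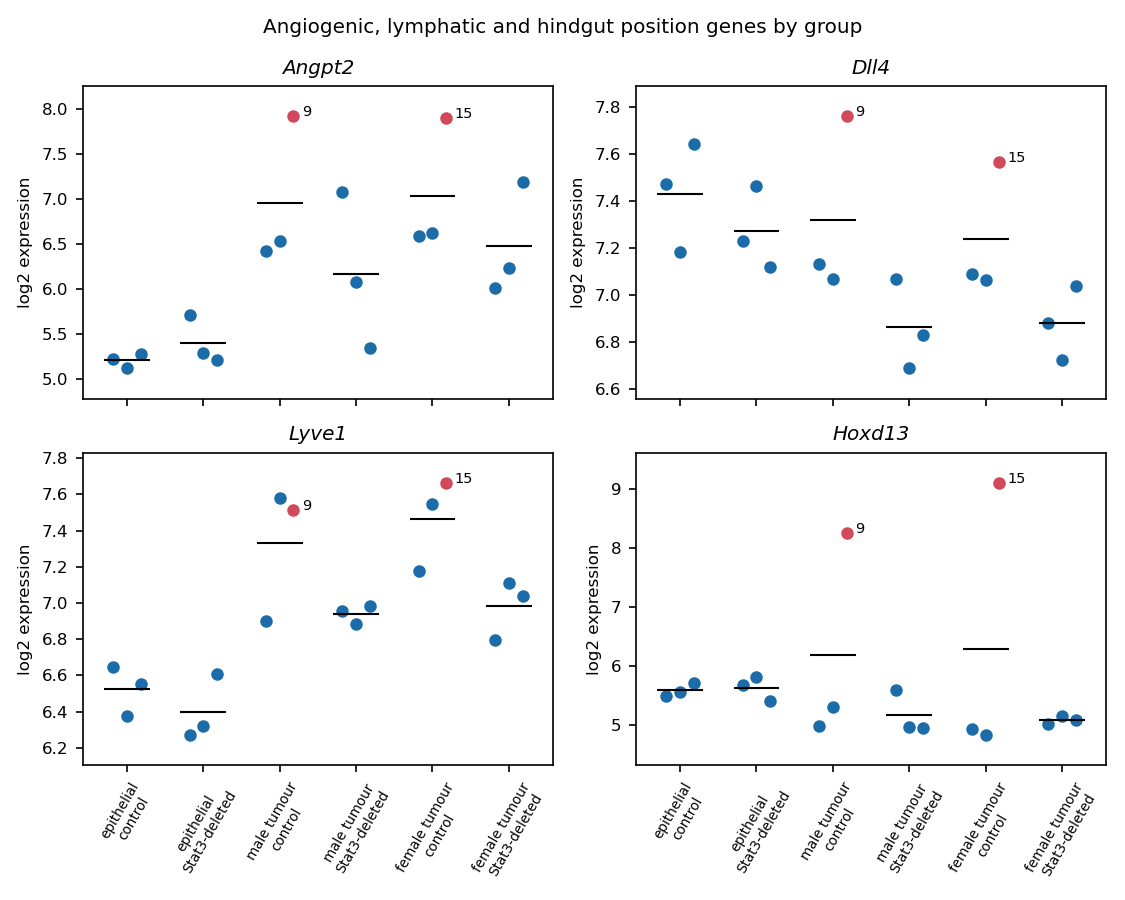
Log2 expression of Angpt2, Dll4, Lyve1 and the hindgut gene Hoxd13 on each array (points) by group, with group means (lines) and control tumour replicates 9 and 15 in red. The red arrays are the highest tumours for Angpt2 (7.92 and 7.89), Dll4 (7.76 and 7.57) and Hoxd13 (8.25 and 9.10), and for Lyve1 replicates 8 and 14 (7.58 and 7.55) lie between them.

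Mmrn1 had differences of opposite sign in males and females, which did not hold without replicates 9 and 15. It was at 5.80, 5.62 and 5.09 in control and 4.40, 5.0 and 5.05 in deleted male tumours, which did not overlap, and at 4.92, 5.27 and 3.75 in control and 4.60, 4.87 and 5.23 in deleted female tumours, which did. The differences were -0.69 ± 0.30 in males (limma unadjusted p = 0.0376, adjusted p = 0.629) and 0.25 ± 0.30 in females. The test of the difference between the sexes gave 0.94 ± 0.43 (unadjusted p = 0.0442, adjusted p = 0.999999), and 0 of the 33 genes passed it, as did 0% of all tested genes, with 1 of the 33 and 0.936% of all genes under an unadjusted p of 0.05. Without replicates 9 and 15 the differences were -0.89 ± 0.21 in males (adjusted p = 0.0823) and -0.20 ± 0.21 in females (adjusted p = 0.999867), and the test between the sexes gave 0.69 ± 0.30 (adjusted p = 0.999836).

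In epithelial cells Esam and Emcn were lower and Sox18 higher on all 3 deleted arrays than on all 3 control arrays, an order that 7.81% of all tested genes had downward and 6.3% upward. The differences were -0.25 ± 0.22, -0.38 ± 0.21 and 0.36 ± 0.19 (limma adjusted p = 0.806, 0.722 and 0.722). Between male and female tumours 0 of the 33 genes passed, against 0.0231% of all tested genes, and Sox18 alone had an unadjusted p under 0.05 (0.32 ± 0.14 higher in males, unadjusted p = 0.0289, adjusted p = 0.749), where 6.13% of all genes did.

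Outside the 33 genes, Ecscr changed with Stat3 deletion. It was at 9.38, 9.73 and 9.79 in control and 9.10, 8.96 and 8.64 in deleted male tumours, and at 9.65, 9.67 and 9.78 in control and 8.65, 8.67 and 9.24 in deleted female tumours. Every deleted tumour lay under every control tumour, an order that 1.14% of all tested genes had downward. It fell by 0.79 ± 0.13 in both sexes combined (limma adjusted p = 0.00666) and by 0.73 without replicates 9 and 15 (adjusted p = 0.0228). In epithelial cells its difference was 0.03 ± 0.18, and the difference between the tissues did not pass (-0.82 ± 0.23, adjusted p = 0.471). It was the 1 gene called of 21 further endothelial genes, the other 20 having an adjusted p over 0.05. Bnip3 (-0.90 ± 0.16, limma adjusted p = 0.0125), read only from the brighter of its 2 probe sets, was the 1 called of 11 hypoxia genes. In the same comparison 0 of the 12 ligand and co-receptor genes, 0 of 17 transcription factors, 0 of 7 lymphatic, 0 of 9 tip cell, 0 of 7 Notch, 0 of 11 pericyte, 0 of 5 adhesion and 0 of 8 inhibitor genes passed, and at an unadjusted p under 0.05 these lists held 2, 4, 2, 1, 0, 2, 1 and 1, where 12% of all tested genes were under that level and 0.71% passed. Of the fibroblast markers 0 of 7 passed, with 2 under an unadjusted p of 0.05.

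Among the 12 tumours the vascular genes varied together in part. Replicate 18, a deleted female tumour, had the highest value of 11 of the 33 genes and replicate 10, a deleted male tumour, of 10, while replicate 12, also a deleted male tumour, had the lowest value of 13. Replicate 18 also had the highest mean of the 7 fibroblast markers (10.86, where the others lay between 9.24 and 9.91), and replicate 12 the highest mean of the smooth muscle markers (9.12) and the lowest of the fibroblast markers (9.24). The part of these cells in the spread was not tested. Angpt2 had the largest spread of the 33 genes over the 12 tumours (SD 0.76), followed by Sox17 (0.59), Mmrn1 (0.54) and Tek (0.53), and the smallest belonged to Flt1 and Nos3 (0.146 and 0.147).

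Correlation with Cdh5, a gene restricted to endothelium, was computed for the other 32 genes over the 12 tumour arrays. It was positive for 29 of them, with a median Pearson r of 0.52, and over all 17315 other tested genes 52.6% were positive, with a median of 0.03. Without the 2 arrays farthest from the median of Cdh5 (replicates 12 and 16), 25 of the 32 were positive with a median of 0.34, against 49.2% and -0.01 over all genes, and 0 of the 32 passed. Eng followed Cdh5 most closely (r = 0.868, permutation p = 0.00021, adjusted over the 32 relations 0.00672, and Spearman rho = 0.888, permutation p = 0.00031). Its r was 0.847 without replicates 12 and 16, 0.891 after the group means were subtracted and 0.855 without replicates 9 and 15. Pdgfrb (r = 0.741, permutation p = 0.00544, adjusted 0.0731), Angpt2 (0.729, 0.00685 and 0.0731) and Pecam1 (0.71, 0.0103 and 0.0828) came next and did not pass by r, while by rho Angpt2 passed (0.818, permutation p = 0.00149, adjusted 0.0238). Rgs5 showed r = 0.0483, Sox17 r = 0.011 and Tek r = -0.135, with permutation p of 0.88, 0.9725 and 0.672. The arrays share their normalisation, and the number of genes that passed moved between 0 and 9 with the arrays used.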

How the data were processed

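The data are the deposited log2 expression values of 18 arrays, which per the submitters' processing notes were made by the authors with RMA (background correction, quantile normalisation and summary of probes); its version is not given in the sources used here. Of 35556 probe sets, 21789 had 1 gene symbol in the platform table, 1621 had several and were left out, and 12146 were unlisted. For each of 19938 genes the probe set with the highest mean was kept, and 17316 genes above the array's 25th percentile in at least 3 arrays were tested. A dim gene cannot be told from background, precision is limited by the number of arrays, and levels were not compared between genes.

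All 18 arrays entered 1 linear model of the 6 group means in limma 3.58.1 (R 4.3.3), with an intensity trend. Tests of 9 comparisons were two-sided, with Benjamini-Hochberg adjustment over all tested genes and a threshold of 0.05. Differences are deleted minus control, tumour minus epithelial, male minus female, female effect minus male effect, or tumour effect minus epithelial effect, with the SE, and intervals are 95% and not adjusted. A tissue difference averages the sexes. Correlations used 100000 permutations (numpy 2.4.6). The fit was tested on simulated data.

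The replicate numbers 1 to 18 are unique and pair no samples. Alternatives were other filters, probe set rules, normalisations and weights, fits of the compared groups alone, no trend, and arrays left out; the counts without Emcn and Mmrn1, and Mmrn1 without replicates 9 and 15, were added after the data were seen. The 33 genes and the lists were chosen with earlier results of these data known. Every member is named, as is Stat3, and of each other list at most the 3 genes with the smallest p per direction; other genes named, Hoxd13 and Gata4 among them, were picked where a result turns on them, and Vegfc and Pgf after their values were seen. Promoters were matched by symbol and are on RefSeq GRCm38.p6.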

Additional observations from a re-analysis of the deposited data

How the results depend on the processing

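Of the 26 vascular genes higher in control tumours, 24 kept their call in each of 27 alternatives (Mmrn1 in the 26 that tested it; not Notch4 and Pdgfb), and of the 24 called in deleted mice 21 did (not Mmrn1, Notch4 and Sox18); no called member reversed. The counts called ranged from 24 to 26 in control mice and from 22 to 26 in deleted mice when each replicate was left out in turn. Quantile normalisation added Dll4 as lower in control mice (-0.41) and, in deleted mice, Dll4 (-0.64) and Apln (-0.41) as lower and Angpt2 as higher (1.04), which gave 23 higher and 3 lower there. Array weights gave 30 called members in deleted mice in place of 24 (25 higher, 5 lower), adding Angpt2 (0.71) and Robo4 (0.22) as higher and Apln (-0.43), Cldn5 (-0.47), Dll4 (-0.33) and Nos3 (-0.29) as lower. They also changed the calls on Stat3 deletion, with 3 members called in epithelial cells (Emcn -0.47, Mmrn2 0.72 and Sox18 0.49), 1 in female tumours (Vwf -0.54) and 3 in both sexes combined (Angpt2 -0.91, Dll4 -0.41 and Eng -0.45), with all-gene counts of 1134, 745 and 1414 in place of 4, 18 and 123. The weights ran from 0.163 (replicate 8) to 4.87 (replicate 6), so that within a group of 3 a few arrays carried the mean. With a replicate left out, the count in both sexes combined was between 0 and 1 (Lyve1, without replicate 7). Ecscr kept its call in all 27 alternatives, with adjusted p from 0.000186 to 0.0431. The number of members correlated with Cdh5 was 1, and it was 0 without the 2 farthest arrays, 9 after the group means were subtracted, 9 without replicates 9 and 15 (an alternative chosen after the data were seen) and between 0 and 5 with each tumour replicate left out (also chosen afterwards). Stat3 in female tumours lost its call when only the compared groups were fitted (-1.87, adjusted p = 0.0606). The cause of these changes was not tested. No paired analysis was possible because the replicate numbers 1 to 18 occur once each. With 3 arrays a group and dim probe sets near background, a change under about the interval widths given could not be detected.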
